A study of Mus musculus with 2 samples.

Results

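Epithelial barcodes rich in nuclear RNA were studied in 2 droplet libraries of embryonic mouse intestine. They were chosen by their own values. In each library, barcodes with at least 500 genes and at least 3 unique molecular identifiers (UMIs, each standing for 1 captured RNA molecule) of the epithelial genes Epcam, Krt8, Krt18, Krt19, Cldn7 and Lgals4 summed were ranked by the share of their UMIs that came from Rn7sk, Gm26917, Gm23935 and Malat1 summed, and the top 15% were kept. That gave 304 members of 2029 epithelial barcodes and of 2492 barcodes in all. The other 85%, 1725 barcodes, are called the other epithelial barcodes.

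Both libraries came from C57BL/6 embryos taken shortly before birth, at E18.5. One embryo was Mlkl -/-. The other was Casp8 C362A/C362A Mlkl -/-, in which the catalytic cysteine of caspase-8 is replaced, and is called the Casp8 mutant. MLKL, which ruptures the plasma membrane in necroptosis, is therefore lacking by label in both embryos. Cells were freed with 0.5 mL of papain for 30 min, about 10000 were loaded, and RNA was read at its 3' end with the 10x Genomics chemistry. The protocol names whole intestine and the source field small intestine. The Mlkl -/- library held 200 members and 1134 other epithelial barcodes, the Casp8 mutant library 104 and 591, and 2 barcode sequences occurred in both libraries. With 1 embryo per genotype there is no test between genotypes, and the 95% intervals given cover counting error only. Mlkl had 1 UMI in the Mlkl -/- members and 0 in the other epithelial barcodes there, and 2 and 10 UMIs in the Casp8 mutant. The C362A change replaces an amino acid and is not read by these counts. Xist, the RNA that coats the inactive X chromosome, had 0 and 2 UMIs in the Mlkl -/- library and 640 and 6440 in the Casp8 mutant, so that a sex difference between the embryos and the genotype cannot be told apart.

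Rn7sk encodes 7SK, a short RNA made by RNA polymerase III that holds the elongation factor P-TEFb in an inactive complex with HEXIM and LARP7 proteins. Malat1 is a long RNA kept in nuclear speckles, the bodies that store splicing factors, and it is among the most abundant RNAs of mammalian nuclei. Gm26917 and Gm23935 are predicted genes. Their reads are often treated in droplet data as signals of nuclear or ribosomal RNA, and a barcode rich in such RNA can be a nucleus, a cell that lost cytoplasm or an intact cell.

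The 4 RNAs of the rule differ in size and in the number of copies in the genome, which bears on what a read assigned to them means. In the GENCODE M21 annotation (GRCm38), Rn7sk lies on chromosome 9 (78175303 to 78175633, minus strand, 331 bases). Gm26917, a lincRNA gene, lies on chromosome 17 (39843013 to 39846341, plus strand), 616 bases before Gm42418. Gm23935 lies on chromosome 16 (11144125 to 11144181, plus strand) and is annotated as a miRNA of 57 bases. Malat1 lies on chromosome 19 (5795690 to 5802672, minus strand). The longest run of A in the transcripts was 3 bases for Rn7sk and for Gm23935, 4 for Gm26917 and 12 for Malat1.

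Gm23935 is shown with its copies because a read cannot tell them apart where the letters match. Of its 5 annotated copies, the 3 with the most UMIs are printed. The sequences are from GENCODE M21, 5' to 3', and capitals mark the bases that do not match Gm23935.
Gm23935: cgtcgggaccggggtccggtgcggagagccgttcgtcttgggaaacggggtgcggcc
Gm24270: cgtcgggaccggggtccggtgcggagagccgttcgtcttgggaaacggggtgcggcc
Gm24187: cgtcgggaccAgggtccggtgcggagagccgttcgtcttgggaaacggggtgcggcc
Gm25911: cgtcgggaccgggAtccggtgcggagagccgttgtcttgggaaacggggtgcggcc
Gm24270 (chromosome 9, 56223715 to 56223771) was identical to Gm23935 over 57 bases. Gm24187 (chromosome 13, 9834469 to 9834525) had 1 mismatch. Gm25911 (chromosome 1, 167340369 to 167340424) had 1 mismatch and 1 deleted base. The copies not printed are Gm24245, identical over 57 bases, and Gm23388, with 4 mismatches.

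For Rn7sk, 42 other annotated transcripts shared at least 5% of its 15-base words, and 38 of them had a UMI in the compared barcodes. The first 60 bases of Rn7sk are printed with the matching stretch of 3 of its copies, with capitals where the copy does not match. These are the 3 copies with the most UMIs, and 1 of them begins with the same letters.
Rn7sk: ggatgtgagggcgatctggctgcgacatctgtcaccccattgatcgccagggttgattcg
Gm24447: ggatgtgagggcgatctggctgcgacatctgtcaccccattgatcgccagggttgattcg
Gm23624: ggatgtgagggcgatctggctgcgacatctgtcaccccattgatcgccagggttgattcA
Gm23037: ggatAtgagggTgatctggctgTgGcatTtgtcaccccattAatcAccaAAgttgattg
Over their whole length these copies were identical to Rn7sk at 83.6%, 77.5% and 89.2% of aligned positions. They lie on chromosome 15 (93234363 to 93234700), chromosome 9 (120791465 to 120791785) and chromosome 17 (46403875 to 46404198).

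The values that chose the members were as follows. Members of the Mlkl -/- library had 9.17% of their UMIs in the 4 RNAs (median) and at most 31.9%, against a median of 2.46% in the other epithelial barcodes. The Casp8 mutant medians were 17.0% and 3.45%, and its highest member reached 37.3%. The last member inside and the first barcode outside both stood at 6.07% in the Mlkl -/- library, and both at 11.6% in the Casp8 mutant, so the rule divides a continuous range. The Casp8 mutant's range lay higher: 253 of its 695 epithelial barcodes (36.4%) reached the Mlkl -/- cutoff, while 64 of 1334 Mlkl -/- barcodes (4.80%) reached the Casp8 mutant cutoff. Of barcodes that missed the epithelial rule, 42 of 105 (40%, exact binomial interval 30.6 to 50.02%) reached the cutoff of the Mlkl -/- library and 9 of 180 (5%, 2.31 to 9.28%) that of the Casp8 mutant.

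Malat1 made up most of the score. It gave 81.8% of the members' rule UMIs in the Mlkl -/- library and 84.4% in the Casp8 mutant. On the CPM scale, a gene's UMIs scaled to a common total of all UMIs, Malat1 was at 81692 in Mlkl -/- members and 22432 in other epithelial barcodes, and at 147230 and 26370 in the Casp8 mutant. Rn7sk was at 8966 and 295 CPM in the Mlkl -/- library and at 6076 and 646 in the Casp8 mutant. Gm26917 was at 6507 and 745 CPM, and at 17067 and 2570. Gm23935 was at 2708 and 312 CPM, and at 4172 and 625. All 4 were higher in members of both libraries, and Gm26917, Gm23935 and Malat1 were higher in Casp8 mutant members than in Mlkl -/- members. These levels are a description only. The rule ranked barcodes by these 4 RNAs summed, so a higher sum in members was fixed in advance. The cutoffs of 6.07% and 11.6% (Mlkl -/- and Casp8 mutant) likewise bear on the order between members of the libraries.

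Membership depended on which of the 4 RNAs were scored. Ranked by the 3 RNAs without Malat1, 120 of the 200 Mlkl -/- members (60%) and 51 of the 104 Casp8 mutant members (49.0%) were again in the top 15%, whereas Malat1 alone kept 177 and 92. Only 73 and 23 members were in the top 15% for each of the 4 RNAs taken separately. The split by the 3 other RNAs fixes their levels, which are given as a description. Rn7sk stood at 94.2 CPM in the 80 Mlkl -/- members that ranked through Malat1 and at 17942 in the 120 that ranked also without it. For the 53 and 51 Casp8 mutant members the corresponding values were 633 and 10641 CPM. Across epithelial barcodes the shares of Rn7sk, Gm26917 and Gm23935 correlated pairwise at Spearman's rho of 0.62 to 0.64 in the Casp8 mutant (695 barcodes of 1 library) and 0.36 to 0.43 in the Mlkl -/- library (1334 barcodes). The share of Malat1 was lower in deeper barcodes (rho with UMIs -0.49 and -0.69, Mlkl -/- and Casp8 mutant). For the 3 other RNAs summed, rho was -0.15 and -0.09.

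**Figure D1:**
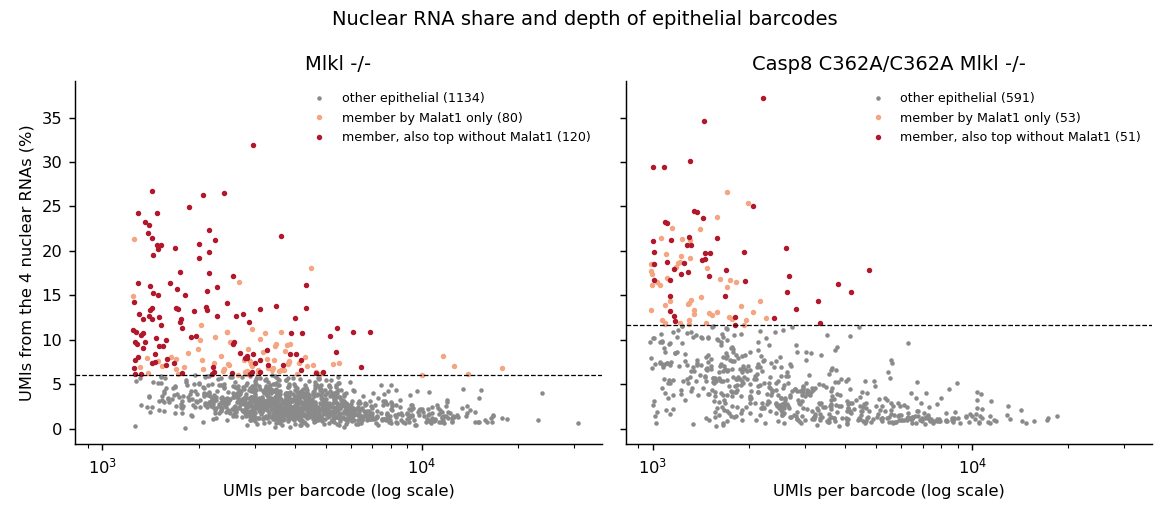
Share of UMIs from the 4 nuclear RNAs (%) against UMIs per barcode (log scale) for epithelial barcodes of each library; the dashed line is the lowest member. Members that rank also without Malat1 are dark red (120 and 51), those that rank through Malat1 are orange (80 and 53), and other epithelial barcodes are grey; members lie mostly among shallow barcodes in both libraries.

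Members were shallow. Their median depth was 2405 UMIs in the Mlkl -/- library against 4067 in other epithelial barcodes, and 1332 against 2629 in the Casp8 mutant, with ranges of 1247 to 17919 and 985 to 4750 UMIs. Median genes per barcode were 1294.5 and 1960.5, and 727 and 1322. After thinning every barcode to 1000 UMIs, the medians were 635.5 and 685 genes, and 583 and 668. Thinning left out 6 and 5 shallower barcodes of the Casp8 mutant sets. The thinned UMIs included the rule RNAs, of which members hold more by choice, so fewer UMIs were left for other genes. A lower gene count in members was thus partly fixed by the rule, and these medians are a description only. Because depth moves with membership, most differences below are also given against part of the other epithelial barcodes. That part is the 361 and 154 barcodes at or below the members' 75th percentile of UMIs (median 2713 and 1415 UMIs). These are called the shallow others. This comparison was added after the data had been seen.

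The marker check of the label went part of the way in the Mlkl -/- library. The 6 epithelial genes chose the barcodes and so are no check. As a description, Krt8, Krt19 and Cldn7 were lower in Mlkl -/- members than in other epithelial barcodes and 0 of the 6 higher, while in the Casp8 mutant Epcam and Krt18 were higher and Krt19 lower. Enterocyte genes had at least 3 UMIs in 200 of 200 and 102 of 104 members, and in 1134 of 1134 and 585 of 591 other epithelial barcodes. By markers of other cell types, 51 of the 200 Mlkl -/- members (25.5%, 19.6 to 32.1%) had over 0.5% of their UMIs in a myeloid, lymphoid, fibroblast, enteric neuron and glia, endothelial or smooth muscle list, over 2% in the enteroendocrine list or over 10% in haemoglobin genes. Among the other epithelial barcodes there, 81 of 1134 (7.14%, 5.71 to 8.80%) did. Casp8 mutant counts were 11 of 104 (10.6%, 5.40 to 18.1%) and 90 of 591 (15.2%, 12.4 to 18.4%). These limits were also set after seeing the data.

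Most of these Mlkl -/- members had ranked through Malat1: 42 of those 80, against 9 of the 120 that ranked also without it. The 80 had 1381 CPM of the neuron and glia list, 2120 of the fibroblast list, 1552 of the smooth muscle list and 5084 of the myeloid list. The 120 had 152, 81.2, 98.8 and 621 CPM. Enterocyte genes went the other way, with 18235 CPM in the 80 and 85658 in the 120. Both kinds of Casp8 mutant member were rich in enterocyte RNA (51897 CPM by Malat1, 33878 also without it). The part that other cell types have in the members' values was not tested, and no doublet caller was run.

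**Figure D2:**
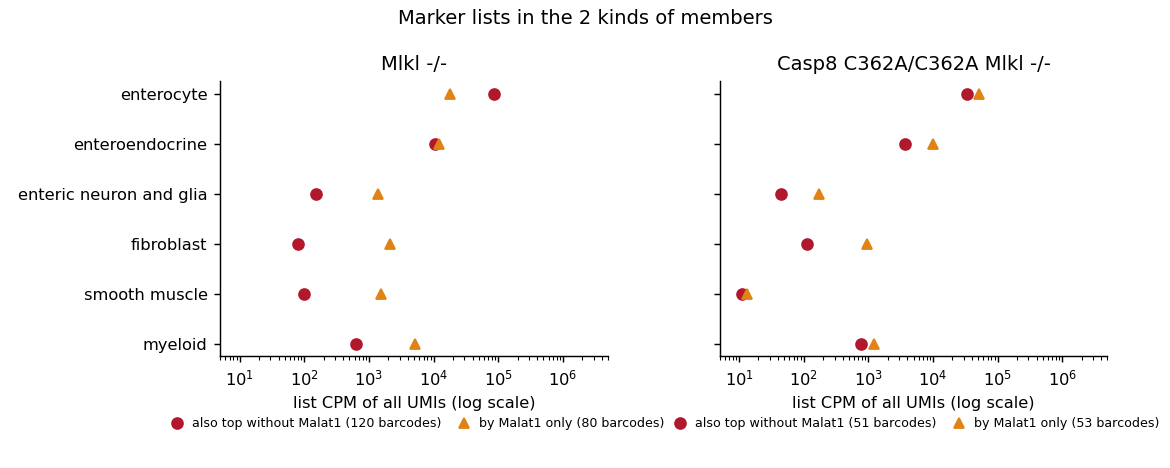
Summed level of 6 marker lists (CPM of all UMIs, log scale) in members that rank also without Malat1 (red circles) and members that rank through Malat1 (orange triangles), in each library. In the Mlkl -/- library the Malat1 group is lower for enterocyte genes (18235 against 85658 CPM) and higher for neuron and glia, fibroblast, smooth muscle and myeloid genes.

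Members were compared with other epithelial barcodes for each gene with at least 50 UMIs in the 2 sets, using CPM of the UMIs outside the 4 rule RNAs. A gene is called higher or lower at a fold of at least 1.5 whose exact interval leaves out 1. In the Mlkl -/- library 972 of 10087 genes were higher (9.64%) and 724 lower (7.18%). In the Casp8 mutant 1177 of 5969 were higher (19.7%) and 1152 lower (19.3%). Of 5765 genes measured in both libraries, 223 were higher and 251 lower in both, while 24 were higher in the Mlkl -/- members and lower in the Casp8 mutant members and 21 the reverse. Against the shallow others the counts were 473 higher and 290 lower in the Mlkl -/- library, and 160 and 186 in the Casp8 mutant. The shallow others hold fewer UMIs than all others (937043 and 212792), so fewer genes reach 50 UMIs and intervals are wider. The fall in counts is therefore no measure of lost difference. The number of genes compared with the shallow others is not given, so these counts are not shares. Scaling by the median gene instead of the total moved Casp8 mutant ratios by 0.57 on the log2 scale and gave 603 higher and 2063 lower. In that library the share of higher among called genes went from 50.5% to 22.6%, so directions there are relative to the total.

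The genes highest in members of both libraries were copies of the rule's own RNAs. Of the 12 genes that the naming rule gave, 8 were 7SK copies, and Gm24270 and Gm25911 were copies of Gm23935. The 7SK copies together had 2533 UMIs in Mlkl -/- members and 1037 in others, 25.1-fold higher (23.3 to 26.99), and 1479 and 1869 UMIs in the Casp8 mutant, 12.3-fold higher (11.5 to 13.2). All 9 and 10 copies with at least 50 UMIs were higher, by 18.9 to 36.6-fold and 7.05 to 16.7-fold. Copies of Gm23935 were 8.09-fold (7.08 to 9.24) and 7.62-fold higher (6.76 to 8.57). Reads of a copy and of the rule's gene can be exchanged, so these ratios are uncertain and are not separate from the rule.

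Rpph1 and 4933437G19Rik were the other 2. Rpph1 (chromosome 14, 50807449 to 50807767), the RNA subunit of nuclear RNase P, which trims the 5' ends of tRNAs, stood out with 112 UMIs in Mlkl -/- members and 106 in others (218 and 20.1 CPM), a level 10.8 times as high (8.24 to 14.3). It had 76 and 104 UMIs in the Casp8 mutant (566 and 49.7 CPM), 11.4-fold higher (8.35 to 15.4). Against the shallow others it was 13.7-fold (8.09 to 26.7) and 9.08-fold higher (5.08 to 19.0), so that its level in members stood apart from barcodes of like depth in both libraries. 4933437G19Rik, a gene of no stated role here, had 60 and 40 UMIs (15.3-fold higher, 10.2 to 23.6) and 41 and 69 UMIs (9.30-fold, 6.13 to 13.8). It was 14.3-fold (6.92 to 39.3) and 5.87-fold (2.997 to 13.6) higher than in shallow others.

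Rmrp, the RNA of RNase MRP, which cuts precursor ribosomal RNA in the nucleolus, was low but followed Rpph1. It had 29 and 24 UMIs in the Mlkl -/- library, 12.4-fold higher in members (6.97 to 22.3), and 11 and 18 in the Casp8 mutant, 9.68-fold higher (4.06 to 21.3). The shallow others had 2 and 4 UMIs of Rmrp, with ratios of 20.9 (6.49 to 222) and 3.79 (1.21 to 17.6). Gm42418, which lies next to Gm26917 and over the antisense gene AY036118, had 642 and 1896 UMIs (3.48-fold higher, 3.17 to 3.80) and 237 and 1036 (3.57-fold, 3.08 to 4.11). Against shallow others it was 3.46-fold (3.03 to 3.97) and 2.14-fold higher (1.75 to 2.63). AY036118 was called in neither library, with ratios of 0.92 (0.568 to 1.37) and 1.47 (0.537 to 2.98). No source at hand states whether the counting used strand, so these 2 overlapping genes may share reads.

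Neat1, the long RNA that builds paraspeckles, was higher in members too. It had 276 and 1535 UMIs in the Mlkl -/- library, 1.85-fold higher (1.62 to 2.10), and 102 and 663 in the Casp8 mutant, 2.41-fold higher (1.93 to 2.95). Against shallow others it was called in neither library, at 1.36-fold (1.16 to 1.60) and 1.25-fold (0.952 to 1.64). Xist, also bound to chromatin, was 1.55-fold higher in Casp8 mutant members (1.42 to 1.68) and 1.43-fold higher than in shallow others (1.28 to 1.60), which does not reach the size asked for. The list of other nuclear RNAs was chosen with earlier results of these data known and holds a Gm23935 copy and Gm42418. It also holds Lars2, a protein-coding gene, and Rn7s2, an RNA of the cytoplasmic signal recognition particle, so not all of it is nuclear. The list had 10 of 13 measured genes higher and 0 lower in the Mlkl -/- library (median log2 ratio 1.88) and 8 of 10 higher and 0 lower in the Casp8 mutant (2.06). Lars2 was among the higher genes in both libraries and Rn7s2 in the Mlkl -/- library. Against shallow others 7 of 10 (1.70) and 3 of 6 (0.71) were higher. Lists count genes with at least 20 UMIs, and over all such genes 1423 of 13388 were higher and 750 lower in the Mlkl -/- library (median 0.06), and 1588 of 9956 higher and 1152 lower in the Casp8 mutant (0.13). No such share over all genes is given against shallow others, without Malat1 in the score or under the share limits. List counts in those settings, here and below, therefore stand without a background and are descriptions only.

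**Figure D3:**
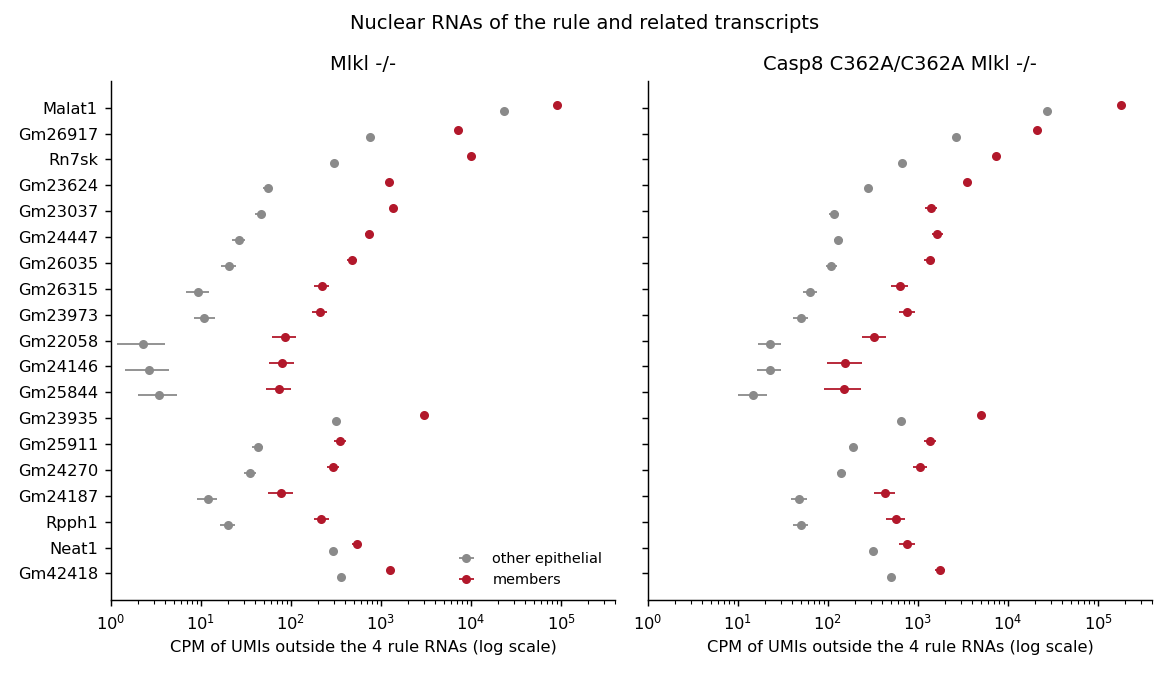
Level of the 4 RNAs of the rule, their copies and 3 other nuclear RNAs (CPM of UMIs outside the 4 rule RNAs, log scale) in members (red) and other epithelial barcodes (grey); bars are exact Poisson 95% intervals. Members lie to the right for each RNA in both libraries, with the smallest gap for Neat1 (1.85 and 2.41-fold). The rule fixed this in advance for the sum of its 4 RNAs, and their copies are not separate from it.

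Grouped by annotated type and without the 4 rule RNAs, members held more of several classes of short RNA, which were not compared with the shallow others. The misc_RNA class, which holds the 7SK copies, was 17.1-fold (16.1 to 18.2) and 11.6-fold higher (10.9 to 12.4). Small nuclear RNAs, the cores of spliceosomes, were 2.62-fold (2.29 to 2.99) and 4.52-fold higher (3.85 to 5.27). Small nucleolar RNAs, which guide changes to ribosomal RNA, were 1.39-fold (1.22 to 1.58) and 2.90-fold higher (2.29 to 3.61). Mitochondrial ribosomal RNAs, which are not nuclear, were also higher, by 2.32-fold (2.19 to 2.45) and 5.08-fold (4.62 to 5.57). Protein-coding genes stood at 1.01 (1.003 to 1.009) and 1.15 (1.14 to 1.15), and processed pseudogenes were lower in the Casp8 mutant members (0.398, 0.391 to 0.406).

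Genes of the 7SK complex and of RNA polymerase III did not move as a group. Of 11 measured genes of the 7SK and P-TEFb list, 2 were higher and 1 lower in each library, with median log2 ratios of -0.06 and 0.23 (Mlkl -/- and Casp8 mutant). Hexim1, whose protein inhibits P-TEFb when bound to 7SK, was the one called higher in both. It had 33 and 169 UMIs in the Mlkl -/- library, 2.03-fold higher (1.34 to 2.92), and 10 and 53 in the Casp8 mutant, 3.06-fold higher (1.33 to 5.84). Against shallow others it was 1.72-fold higher in the Mlkl -/- library (1.03 to 2.86), and the Casp8 mutant had 10 and 4 UMIs, too few for a call. Larp7, which guards the 3' end of 7SK, stood at 0.958 (0.685 to 1.28) in the Mlkl -/- library and was lower in the Casp8 mutant (5 and 258 UMIs, ratio 0.331, 0.0972 to 0.713). Against shallow others Larp7 was called in neither library. Cdk9, the kinase of P-TEFb, was called in neither library. Of the RNA polymerase III and SNAPc list, 0 of 17 and 0 of 9 measured genes were called. The splicing and speckle list had 2 of 30 higher and 2 lower in the Mlkl -/- library (median 0.06), and 4 higher and 2 lower in the Casp8 mutant (0.07). Against shallow others 8 of 29 and 2 of 19 were higher and 0 lower (0.34 in each), with no share over all genes to set beside them.

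Cytoplasmic ribosomal protein genes were lower in members by the main comparison. They made up 5.22% of all UMIs, rule RNAs included, in Mlkl -/- members and 7.13% in others, and 3.08% and 10.0% in the Casp8 mutant. Of 91 measured genes 13 were lower and 0 higher in the Mlkl -/- library (median log2 ratio -0.35), and 84 of 90 were lower and 0 higher in the Casp8 mutant (-1.62). Against the shallow others the Casp8 mutant members kept the lower direction with 42 of 83 lower (-0.62). In the Mlkl -/- library that comparison turned the direction, with 12 of 87 higher and 0 lower (0.37). With members ranked without Malat1, 7 of 91 were lower and 0 higher in the Mlkl -/- library (-0.33), and 17 of 90 lower and 1 higher in the Casp8 mutant (-0.30). The difference between the libraries was not tested.

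Genes for RNA polymerase I and ribosomal RNA processing, the nucleolar machinery, were lower in part. In the Mlkl -/- library 6 of 21 were lower and 1 higher (median -0.62), and in the Casp8 mutant 9 of 20 were lower and 0 higher (-0.98). Npm1, a nucleolar chaperone, was at 205 and 214 CPM in the Mlkl -/- library and at 89.3 and 475 in the Casp8 mutant, where the ratio was 0.196 (0.0969 to 0.330). Ncl, nucleolin, was at 246 and 326 CPM, and at 305 and 603 CPM. Against shallow others the list had 3 of 18 higher and 1 lower in the Mlkl -/- library (0.16) and 1 of 9 lower in the Casp8 mutant (-0.69).

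The 12 genes that the naming rule gave as lower in both libraries held several of cycling cells and of the pancreas. Pclaf, a partner of the replication clamp, had 3 and 306 UMIs in the Mlkl -/- library (ratio 0.117, 0.0206 to 0.297) and 0 and 177 in the Casp8 mutant, at least 3.79-fold lower. Ube2c, which drives exit from mitosis, was 2.71-fold (1.81 to 4.45) and 6.54-fold lower (2.59 to 37.1), and Cdca3, another mitotic gene, 3.87-fold and 5.10-fold lower. Ran, the GTPase of nuclear transport, was 2.35-fold (1.78 to 3.26) and 7.29-fold lower (3.42 to 24.8), and Nutf2, which carries Ran into the nucleus, had 1 and 127 UMIs and 0 and 159. Sox9, a transcription factor of crypt progenitors, had 6 and 274 UMIs and 1 and 171.

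The remaining lower genes were the pancreatic genes Ctrb1, Try5, Ins1 and Ins2, the spliceosome gene Lsm5 and the RNA export gene Alyref2. Ctrb1, a digestive protease gene of pancreatic acinar cells, had 200 and 8314 UMIs in the Mlkl -/- library (4.04-fold lower, 3.52 to 4.68). In others of that library 80.1% of the UMIs of the acinar list lay in 10 barcodes, and the median over barcodes was alike, at 527 and 514 CPM. Against shallow others, Pclaf, Cdca3, Ctrb1 and Try5 were lower in the Mlkl -/- library, and Ube2c, Ctrb1 and Try5 in the Casp8 mutant. Ins1 and Ins2 were higher in the Casp8 mutant in that comparison (3.07 and 2.60-fold). The proliferation list had 10 of 18 genes lower and 2 higher in the Mlkl -/- library (median -0.83) and 3 of 18 lower and 0 higher in the Casp8 mutant (-1.26). The 2 higher genes, Tubb5 and Stmn1, are also expressed in neurons, whose markers rose with them in this library, and the part of those markers was not tested. Against shallow others the medians were 0.11 and -0.08. With members ranked without Malat1, 9 of 18 were lower and 0 higher in the Mlkl -/- library (-0.69), and 1 of 18 lower and 0 higher in the Casp8 mutant (-0.05). With barcodes over the share limits left out, 14 of 18 were lower and 0 higher (-1.61), and 6 of 18 lower and 0 higher (-1.12).

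Enterocyte genes differed between members and others in 1 library only by the size rule, and the libraries' ratios were not tested against each other. In the Casp8 mutant 16 of 18 measured genes were higher in members and 0 lower (median log2 ratio 2.33), and the list summed to 50999 CPM in members and 9860 in others. Of 20 genes measured in the Mlkl -/- library, 0 were higher and 1, Fabp6, lower (median 0.12), with 57491 and 50751 CPM. On the scale of all UMIs, where the list summed to 42097 and 9562 CPM, the median Casp8 mutant member had 46625 CPM and the median other barcode 4996. The gap was thus not carried by a few barcodes.

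Apoa4, an apolipoprotein of fat absorption, had 1665 UMIs in Casp8 mutant members and 4144 in others (12392 and 1981 CPM), 6.26-fold higher (5.91 to 6.62), against 1.21-fold (1.18 to 1.24) in the Mlkl -/- library. Apoa1, the main protein of high-density lipoprotein, was 5.13-fold higher (4.91 to 5.35) in the Casp8 mutant and 1.22-fold in the Mlkl -/- library (1.18 to 1.25). Anpep, a brush border peptidase, was 6.47-fold higher (5.76 to 7.24) in the former and 0.714 of the others' level (0.619 to 0.816) in the latter. Fabp1, the liver-type fatty acid-binding protein, was 5.34-fold higher (4.47 to 6.33) and 1.07-fold (1.04 to 1.09).

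Depth moved with this difference too. Against the shallow others of the Casp8 mutant, whose enterocyte list summed to 31146 CPM, 8 of 16 genes were higher and 0 lower (median 0.62), with Apoa4 at 1.69-fold (1.58 to 1.82) and Anpep at 2.12-fold (1.82 to 2.46). In the Mlkl -/- library the shallow others held 87848 CPM, and 8 of 19 genes were lower in members (median -0.48). The shallow others were thus richer in enterocyte RNA than the other epithelial barcodes as a whole in both libraries. With members ranked without Malat1, the list had 8 of 18 higher in the Casp8 mutant (0.60) and 4 of 20 higher and 1 lower in the Mlkl -/- library (0.45).

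Goblet genes were lower in members. Of 10 measured genes 6 were lower and 0 higher in each library, with medians of -0.75 and -0.82. Tff3, a trefoil peptide of mucus, was at 4096 and 5016 CPM in the Mlkl -/- library and at 9795 and 17398 in the Casp8 mutant. Fcgbp, a mucus protein, was at 0.577 (0.481 to 0.682) and 0.481 (0.373 to 0.605) of the others' level, and it was also lower than in shallow others (0.523 and 0.310). Against shallow others, 5 of 8 genes were lower in the Casp8 mutant (-0.83), and 2 of 9 lower and 2 higher in the Mlkl -/- library (0.18). The median barcode had nearly the same goblet level in members and others (1524 and 1826, and 6151 and 5810 CPM of all UMIs), while 10 barcodes held 67.8% and 67.4% of the members' goblet UMIs.

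Mitochondrial transcripts were higher in Casp8 mutant members. Genes of the mitochondrial genome had 8 of 10 higher and 0 lower there (median 0.84) and 1 of 13 higher and 0 lower in the Mlkl -/- library (0.12). All genes of the mitochondrial chromosome, its ribosomal and transfer RNAs included, made up 1.16% of all UMIs in members and 0.588% in others of the Casp8 mutant. The shares were 1.43% and 1.13% in the Mlkl -/- library. With the rule RNAs left out of the totals they were 1.41% and 0.606%, and 1.59% and 1.16%. Against shallow others 3 of 10 were higher and 0 lower in the Casp8 mutant (0.43), while 1 of 10 was higher and 3 lower in the Mlkl -/- library (-0.15). The mitochondrial share of all UMIs in shallow others was 0.848% in the former and 1.59% in the latter, or 0.905% and 1.65% without the rule RNAs. mt-Nd5, a subunit of respiratory complex I, was the gene higher in both, by 2.95-fold (2.60 to 3.34) and 2.92-fold (2.21 to 3.77), and it was also higher than in shallow others (2.27 and 1.71-fold). mt-Nd1, of the same complex, was at 1.34-fold (1.27 to 1.42) and 2.06-fold (1.77 to 2.38). Haemoglobin genes, which belong to red cells, made up 0.841% and 0.810% of all UMIs in the Mlkl -/- library and 1.22% and 1.34% in the Casp8 mutant. With the 4 rule RNAs left out of the totals, the shares were 0.935% and 0.830%, and 1.48% and 1.38%. The direction in the Casp8 mutant thus turned with the total used. Medians per barcode, of all UMIs, were 0.263% and 0.278%, and 0.999% and 1.04%. Of 6 and 5 measured genes, 0 and 2 (Hba-a2 and Hba-x) were lower in members and 0 higher. Against shallow others 5 of 5 (median -1.16) and 4 of 5 (-1.84) were lower, and without Malat1 in the score 5 of 6 (-3.05) and 3 of 5 (-1.16).

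Interferon-stimulated genes, the antiviral and immune set that interferons induce, were higher in Casp8 mutant members than in other epithelial barcodes of the same embryo. There 31 of 40 were higher and 1, Ifitm3, lower (median log2 ratio 1.59), and the list summed to 23036 and 8624 CPM. The median barcode was at 18009 CPM of all UMIs in members and 8075 in others. For the Mlkl -/- library, 9 of 27 measured genes were higher and 1, Rsad2, lower (0.65), at 1200 and 860 CPM in all. The median barcode there was at 739 and 718 CPM of all UMIs.

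Isg15, a ubiquitin-like modifier, was counted 797 and 3062 times in the Casp8 mutant (5932 and 1464 CPM), which is 4.06-fold higher (3.74 to 4.38), and 43 and 140 in the Mlkl -/- library, 3.18-fold higher (2.19 to 4.47). Ifit1, which binds foreign RNA caps, was 4.25-fold (3.72 to 4.84) and 1.65-fold higher (1.24 to 2.13), and Irf7, a transcription factor of the interferon response, 3.54-fold (3.05 to 4.08) and 2.002-fold (1.36 to 2.81). Against shallow others, 13 of 39 genes were higher and 1 lower in the Casp8 mutant (0.48), with Isg15 at 1.997-fold (1.79 to 2.23), and 1 of 17 was higher and 1 lower in the Mlkl -/- library (0.06).

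MHC class I genes, which present peptides to T cells, had 9 of 17 higher and 0 lower in the Casp8 mutant (median 0.91) and 2 of 15 in the Mlkl -/- library (0.38). Against shallow others 2 of 13 were higher and 0 lower in the Casp8 mutant (0.38), and 0 of 12 higher and 2 lower in the Mlkl -/- library (-0.13). B2m, the shared light chain, was 1.76-fold (1.57 to 1.97) and 1.72-fold higher (1.51 to 1.96), and at 1.02-fold (0.886 to 1.17) and 1.12-fold (0.961 to 1.31) of the shallow others. The cell death list had 13 of 28 higher and 1, Pycard, lower in the Casp8 mutant (0.99) and 4 of 30 higher and 1 lower in the Mlkl -/- library (0.17). Casp8 itself was 2.92-fold higher in Casp8 mutant members (1.95 to 4.15) and 1.21-fold (0.843 to 1.66) in Mlkl -/- members. Casp1, the inflammasome caspase, was 4.83-fold higher (2.32 to 8.92) in the former. Against shallow others 2 of 14 cell death genes were higher in the Casp8 mutant (0.42), and Casp8 stood at 1.44-fold (0.880 to 2.36). Among NF-kB targets 5 of 18 and 9 of 17 were higher and 0 lower in the Casp8 mutant and the Mlkl -/- library, with Nfkbia, an inhibitor of NF-kB, at 0.932 (0.667 to 1.25) and 1.67-fold (1.39 to 1.99). Against shallow others 1 of 9 and 3 of 15 NF-kB targets were higher and 0 lower (0.12 and 0.55).

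**Figure D4:**
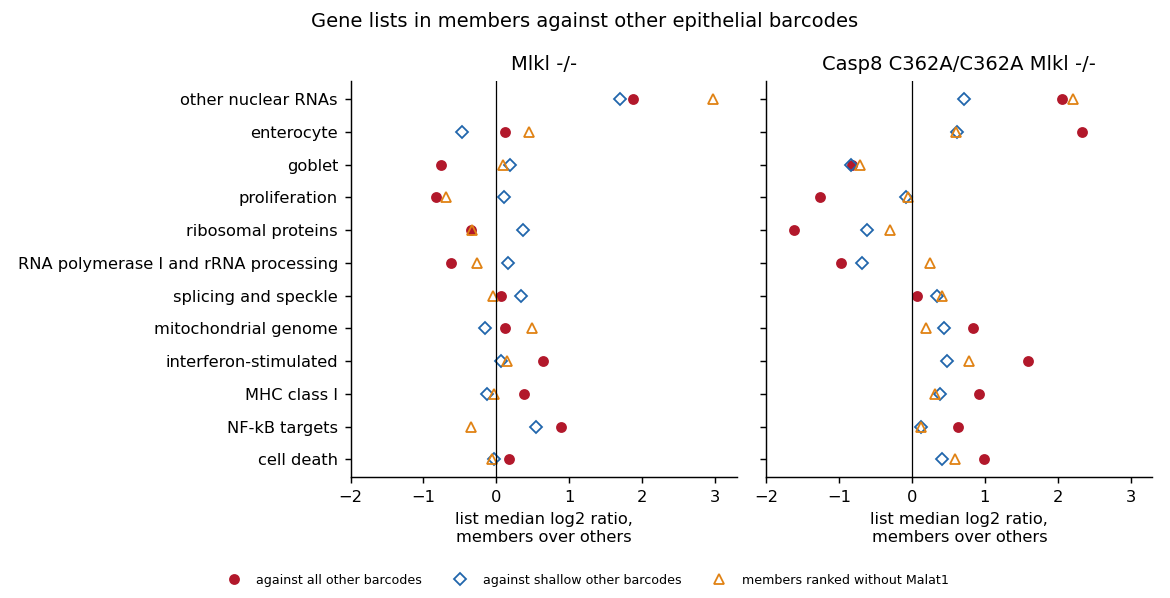
Median log2 ratio of 12 gene lists in members over other epithelial barcodes (red), over the shallow others (blue diamonds) and with members ranked without Malat1 (orange triangles), in each library. For ribosomal protein, enterocyte and interferon-stimulated genes of the Casp8 mutant the red points at -1.62, 2.33 and 1.59 move to -0.62, 0.62 and 0.48 against shallow others. The list of other nuclear RNAs also holds Lars2 and Rn7s2, which are not nuclear RNAs.

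Other cell types were compared by their whole marker lists, since their markers moved with membership in the Mlkl -/- library. There 7 of 8 measured genes of enteric neurons and glia were higher in members and 0 lower (median 4.49, 439 and 277 UMIs). Of fibroblast genes 8 of 9 were higher, of smooth muscle genes 6 of 7, of myeloid genes 10 of 12 and of enteroendocrine genes 11 of 14. The 10 richest members held 79.0%, 89.9%, 88.8%, 79.7% and 83.2% of the UMIs of these lists, and the median member had 0 UMIs of the neuron and glia, fibroblast and smooth muscle lists. Of the Casp8 mutant lists 1 of 6 fibroblast and 2 of 11 myeloid genes were higher and 0 and 1 lower, 1 gene each of the neuron and glia and smooth muscle lists was measured (Stmn2, a neuronal gene, was higher, and the smooth muscle gene was not called), and 3 of 13 enteroendocrine genes were higher and 3 lower. With barcodes over the share limits left out, the Mlkl -/- library had 180 members, with 0 of 4 neuron and glia genes and 0 of 10 myeloid genes called. In that set enterocyte genes had 6 of 20 higher and 0 lower (0.49), ribosomal protein genes 52 of 90 lower (-0.66) and NF-kB targets 0 of 16 called (0.28). In the Casp8 mutant, with 89 members, enterocyte genes stood at 2.33, ribosomal protein genes at -1.66 and interferon-stimulated genes at 1.65.

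Between genotypes, members of the Casp8 mutant were compared with members of the Mlkl -/- library for 2358 genes with at least 50 UMIs. In this set 368 genes (15.6%) were higher in the Casp8 mutant and 526 (22.3%) lower. Among the other epithelial barcodes 2585 of 11145 (23.2%) were higher and 3562 (32%) lower. The 2 contrasts draw on the same 2 embryos and libraries, so they are given side by side and are not separate evidence. Over all genes with at least 20 UMIs, the floor for lists, 662 of 5382 were higher and 744 lower in members (median -0.11), and 3310 of 14446 higher and 3934 lower in the others (-0.16).

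Interferon-stimulated and antimicrobial genes led the higher side. All 31 measured interferon-stimulated genes were higher in Casp8 mutant members (median log2 ratio 4.16), and 40 of 40 were higher in the other epithelial barcodes (4.14). Measured genes needed 20 UMIs over both sets. Of the 40 genes, 12 had 0 UMIs in Mlkl -/- members and could be measured only through the Casp8 mutant. The same holds for Mx1 and Iigp1 in the others. These counts and medians are thus partly set by the floor. Isg15 was 70.0-fold higher in members (52.1 to 98.6) and 54.9-fold in the others. Ifit2 had 0 and 68 UMIs in Mlkl -/- and Casp8 mutant members, at least 86.6-fold higher, Ifit1bl1 0 and 134, at least 171-fold, and Oas2, an enzyme that double-stranded RNA switches on, 0 and 51, at least 64.9-fold. These bounds set the empty group at 3 UMIs. MHC class I genes were higher for 12 of 13 (2.32), and for 16 of 17 in the others (1.82).

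Reg3g, a lectin that binds Gram-positive bacteria (chromosome 6, 78466269 to 78468872), had 0 UMIs in Mlkl -/- members and 223 in Casp8 mutant members, at least 284-fold higher. Reg3b, its bactericidal neighbour, had 5 and 555 UMIs, 386-fold higher (181 to 1310). In the antimicrobial list 10 of 13 were higher and 1, Leap2, lower (median 5.19, or 4.87 with empty groups at their bound). Of the 21 genes of this list, 9 had 0 UMIs in Mlkl -/- members and could be measured only through the Casp8 mutant. Slfn4 (at least 87.9-fold), BC100530 (at least 63.7-fold), S100a8 and S100a9 were the other named genes. S100a8 and S100a9, subunits of the neutrophil protein calprotectin, had 6 and 4 UMIs in Mlkl -/- members and 303 and 306 in the Casp8 mutant. Granulocyte markers had at least 3 UMIs in 90 of 104 Casp8 mutant members and 574 of 591 others (medians of 3529 and 3384 CPM per barcode), so they were spread over nearly all barcodes of that library. Members had, on this scale, 0.791 of the others' Reg3g (0.687 to 0.903) and 0.884 of their Reg3b (0.810 to 0.963) in the Casp8 mutant.

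Enterocyte genes went both ways between genotypes in members and were mostly lower in the Casp8 mutant in the others. In members 6 of 19 were higher in the Casp8 mutant and 7 lower (median 0.07), and the list summed to 50999 and 57491 CPM. In the other epithelial barcodes 2 of 21 were higher and 17 lower (median -2.08), at 9860 and 50751 CPM. Apoa4 was at 0.976 (0.924 to 1.03) in members and 0.189 in the others. Apoa1 was 2.01-fold higher (1.92 to 2.11) in members and at 0.479 in the others. Anpep was 7.24-fold higher (6.15 to 8.56) in members, and Fabp6, the bile acid-binding protein of the ileum, 18.7-fold (14.2 to 25.2). In the others Fabp6 was called higher too, and Anpep was not called. Fabp1 was lower in both, by 10.5-fold in members (9.03 to 12.2) and 52.3-fold in the others, and lactase, Lct, by 3.91-fold (2.43 to 7.15) and 26.1-fold.

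The enterocyte counts in members changed without Malat1 in the score. With members ranked by the 3 other RNAs, 2 of 19 genes were higher and 14 lower in the Casp8 mutant (median -1.79), at 17303 and 73126 CPM. With 1 cutoff over both libraries the median was -0.66. Members of the 2 libraries also differed in depth (1332 and 2405 UMIs), and which of these moves the enterocyte level was not tested.

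**Figure D5:**
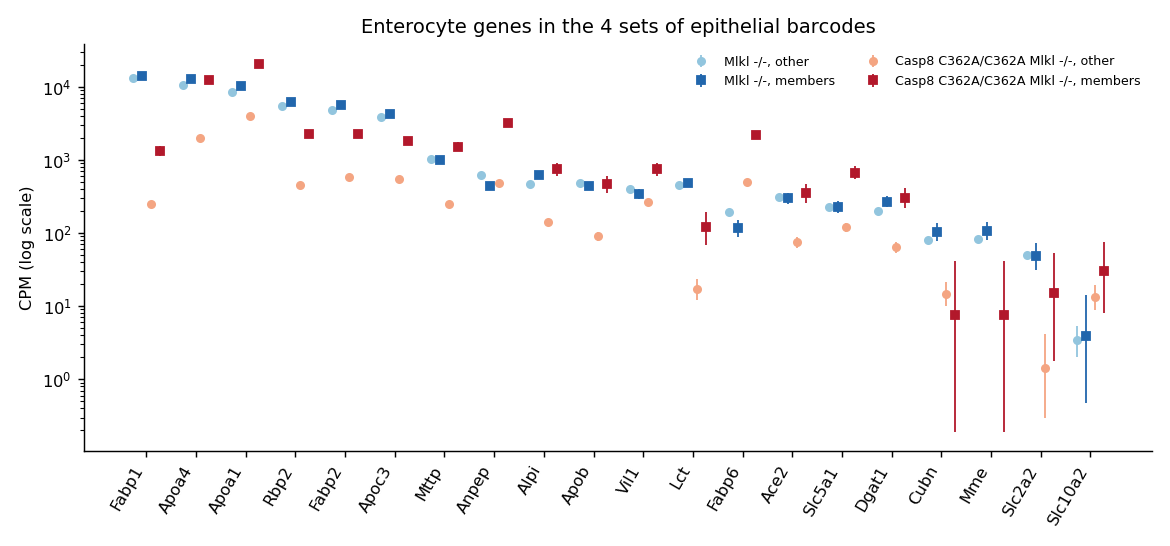
Level of the 20 enterocyte genes with at least 50 UMIs (CPM of UMIs outside the 4 rule RNAs, log scale) in other epithelial barcodes (circles) and members (squares) of each library; bars are exact Poisson 95% intervals and sets with 0 UMIs have no point. Red squares lie above orange circles for Apoa4 (12392 and 1981 CPM) and Anpep, while blue squares and circles lie close together.

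The lower side of the genotype contrast held several genes of other cell types. Cd74, the MHC class II chaperone of antigen-presenting cells, had 511 UMIs in Mlkl -/- members and 4 in Casp8 mutant members, 29.8-fold lower (13.0 to 123). Actg2 and Myl9, smooth muscle genes, had 157 and 100 UMIs against 0 and 0, at least 13.7-fold and 8.73-fold lower. The gut hormone gene Gcg had 268 and 1 UMIs, and Gip 420 and 5 (20.01-fold lower, 9.35 to 68.1). Apoe, a lipoprotein gene of macrophages and other cells, was 9.02-fold lower (6.45 to 13.4), and Rbp4 had 130 and 1 UMIs. Cd74, Actg2, Myl9, Gcg and Gip belong to the marker lists that were high in a few Mlkl -/- members, and Apoe and Rbp4 belong to none of these lists. Leap2, a peptide hormone of enterocytes, had 106 and 0 UMIs (at least 9.25-fold lower), and Ctrb1 200 and 1.

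Ribosomal protein genes went in opposite directions in members and others between genotypes. In members 37 of 85 were lower in the Casp8 mutant and 2 higher (median -0.50), whereas in the others 62 of 91 were higher and 0 lower (0.83). The difference between these contrasts was not tested, and with members ranked without Malat1 54 of 87 were higher and 0 lower (0.79). Cell death genes were higher for 11 of 22 and lower for 0 in members (0.94), and higher for 5 and lower for 4 of 30 in the others (0.12). Casp8 was 3.27-fold higher in members (2.02 to 5.25), Ripk3, the kinase that acts on MLKL, 6.63-fold (2.83 to 17.4) and Zbp1, a sensor that binds RIPK3, 17.1-fold (7.83 to 48.2). Ripk3 and Zbp1 were called higher in the other epithelial barcodes too, so their rise was not particular to members. Casp8 was not called there. Goblet genes were higher for 7 of 8 in members (1.23) and 9 of 10 in the others (1.20).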

How the data were processed

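The values are raw UMI counts per gene and barcode, deposited by the authors as 1 matrix per library. Per the submitters' processing notes, Cell Ranger 3.0.2, Seurat 3.0 and the mm10 build were used; no source at hand gives their settings or the annotation. Of 52636 gene IDs, 52403 had a symbol in GENCODE M21. No barcodes beyond the stated rules were removed, and no doublet caller was run. UMIs were summed over the barcodes of each set (Python 3.11.15, numpy 2.4.6, scipy 1.17.1, pandas 2.3.3). Set totals were 570177 and 5398108 UMIs in the Mlkl -/- library (members, others) and 162766 and 2157415 in the Casp8 mutant, which sets the precision. Ratios add 0.5 UMI to each count. Medians of list levels over barcodes are CPM of all UMIs, rule RNAs included. Intervals of ratios are exact conditional binomial (Clopper-Pearson), those of levels of summed UMIs exact Poisson and those of shares exact binomial, all at 95%. Cells are not replicates, so no p-values were computed. The script was tested on simulated data.

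Named genes needed at least 50 UMIs over both sets. Rule genes, mitochondrial, haemoglobin, sex-linked and ribosomal protein genes were not ranked. For members against others, the 12 higher and 12 lower genes called in the same direction in both libraries were named by the bound nearest 1, and between genotypes 10 and 10. List genes were looked up, and Hexim1, mt-Nd5, Rmrp, Larp7, Npm1 and other list genes were picked after their values were seen. The members and lists were chosen with earlier results of these data known. The closing section gives the effect of 16 planned and 3 added alternatives.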

Additional observations from a re-analysis of the deposited data

Results flagged for a closer look

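The granulocyte marker list (S100a8, S100a9, Stfa and related genes) differed in direction between the libraries. Its median log2 ratio in members over other epithelial barcodes was -1.17 in the Mlkl -/- library, over 4 measured genes with 20 and 340 UMIs in all, and 0.79 in the Casp8 mutant, over 9 genes with 731 and 7895 UMIs. The difference was not tested, since each genotype is 1 library. Against the shallow others the medians were -1.67 (2 genes) and 0.06 (6 genes).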

How the results depend on the processing

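No paired analysis was possible because each genotype is 1 embryo and the labels give no replicate numbers. Leaving out barcodes with at least 3 UMIs of any other cell type's list left 40 and 2 members and gave no value. Over the rest, 896 of 1171 list medians lay within the interval of the reported one, 252 lay outside it with no reversal and 23 reversed; for named genes the counts were 1019, 194 and 11 of 1224, and for depth ratios 25 of 36 lay within. The cause of these changes was not tested.

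Counts of genes moved by over 1.5 times as follows. The number of genes that could be called also changed with the UMIs in the sets and with the minimum. It is not given for these settings, so the counts are not shares. Against the shallow others the Mlkl -/- members had 473 higher and 290 lower genes and the Casp8 mutant members 160 and 186. Without Malat1 in the score the counts were 580 higher (Mlkl -/-), 737 higher and 495 lower (Casp8 mutant), and 741 higher and 842 lower between genotypes. Leaving out barcodes with at least 3 UMIs of stromal, neural or myeloid lists gave 493 higher (Mlkl -/-), 447 higher and 557 lower (Casp8 mutant), and 149 and 210 between genotypes. The top 10% gave 213 and 312 between genotypes. Totals with the rule genes gave 1096 lower (Mlkl -/-), and median scaling 603 higher and 2063 lower (Casp8 mutant). With at least 20 UMIs a gene 662 were higher between genotypes, and with no minimum 2333 (Mlkl -/-), 1998 (Casp8 mutant), and 1024 higher and 811 lower between genotypes.

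Reversed list medians (log2, Mlkl -/- members over others unless stated) were these. Without Malat1 they were 0.085 for goblet, -0.032 for enteroendocrine, -0.35 for NF-kB, -0.30 for immediate early, -1.23 for myeloid, -1.97 for fibroblast, -0.69 for neuron and glia and -1.26 for smooth muscle genes, 0.24 for rRNA processing in the Casp8 mutant and 0.79 for ribosomal proteins between genotypes. Against shallow others they were 0.18 for goblet, 0.11 for proliferation, 0.37 for ribosomal protein and 0.16 for rRNA processing genes. With 1 cutoff over both libraries they were -0.53 for myeloid, -0.74 for smooth muscle and, between genotypes, 0.12 for ribosomal proteins. Smooth muscle was -0.83 in the top 10% and -0.48 after thinning. Under the share limits, immediate early genes were at -0.078 and fibroblast genes, a list that the limits used, at -0.41. With at least 1000 genes ribosomal proteins were at 0.29 between genotypes, and under median scaling endoplasmic reticulum stress genes at -0.031 (Casp8 mutant).

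Reversed named genes were Alyref2 in the Casp8 mutant without Malat1 (0.12) and against shallow others (0.25), Ran against shallow others (0.061, Mlkl -/-), and Ins1 and Ins2 in the Casp8 mutant against shallow others (1.62 and 1.38) and with at least 1000 genes (1.75 and 1.67). Without stromal, neural or myeloid markers, Ins2 was at 0.32 (Mlkl -/-), Try5 at 0.63 (Casp8 mutant) and Apoe at 0.12 between genotypes. Under the share limits Gcg, whose enteroendocrine list the limits used, was at 0.35 between genotypes.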

Other observations

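Enteroendocrine genes, which code for gut hormones and their granule proteins, were higher for 11 of 14 and lower for 2 in Mlkl -/- members (median log2 ratio 1.84, 12645 and 4188 CPM), and 10 barcodes held 83.2% of the members' UMIs of the list. With barcodes over the share limits left out, 3 of 12 were higher and 1 lower (0.05). The limits used the UMIs of this list, so that fall was built in. In the Casp8 mutant 3 of 13 were higher and 3 lower (0.18), and against shallow others 0 were higher and 7 of 11 lower (-1.11). Chga, the granule protein chromogranin A, was 5.08-fold higher in Mlkl -/- members (3.79 to 6.72) and at 1.19 in the Casp8 mutant (0.619 to 1.98).

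Immediate early genes, which respond within minutes to stress or signals, were higher for 7 of 17 and lower for 0 in Mlkl -/- members (0.45), and for 6 of 16 and 0 in Casp8 mutant members (0.41). Against shallow others 7 of 15 were higher and 0 lower in the Mlkl -/- library (0.36), and 0 of 15 higher and 1 lower in the Casp8 mutant (0.12). The p53 target list had 1 gene higher in each library (1 of 14 and 1 of 12) and 1 and 0 lower. Meg3, an imprinted long RNA, had 455 and 1353 UMIs in the Mlkl -/- library (3.46-fold higher in members, 3.10 to 3.84) and 50 and 514 in the Casp8 mutant (1.53-fold, 1.11 to 2.03). Against shallow others it was 2.73-fold higher (2.36 to 3.18) in the former and at 0.887 (0.610 to 1.27) in the latter.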
